A study of Mus musculus with 2 samples.

Results

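miR-101a and miR-101b are the mouse members of the miR-101 family that were studied here in J1 mouse embryonic stem cells (mESCs). They were chosen by name, as the hairpins Mir101a and Mir101b, 2 of the 1174 hairpins with a miRNA name in GENCODE M21. Every sequenced tag that matched either hairpin perfectly over its whole length was taken, on both arms and with every 5′ and 3′ end. The Mir101a hairpin held 22 distinct tags and the Mir101b hairpin 32.

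J1 is an established mESC line, which was grown without feeder cells on gelatin in serum replacement medium that contained the self-renewal cytokine LIF at 1000 U/mL. The cells received 1 μM PD0325901 (PD), an inhibitor of the kinase MEK that blocks ERK1/2 signaling, or DMSO, its solvent, for 24 h. Small RNA was sequenced as 1 library per treatment, and each library was made from the pooled RNA of 3 independent experiments. There were thus no replicates, and every test and 95% interval below covers the sampling of reads only, not the variation between cultures or libraries. Clean reads numbered 18870345 for DMSO and 20944808 for PD, and levels are given in RPM, the reads of a miRNA scaled to the clean reads of its library. At this depth 3 reads corresponded to 0.159 RPM in the DMSO and 0.143 RPM in the PD library. The labelled cell type was checked by the miR-290-295 cluster, which marks mouse ESCs and took 28.9% and 28.4% of the reads that matched miRNA hairpins. Reads of 28 to 32 nt were a larger part of the PD library (16.96%) than of the DMSO library (7.11%), and hairpin reads were 10.1% and 11.6%.

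A miRNA is cut from a hairpin precursor by Drosha and Dicer, and the strand that is loaded into Argonaute recognizes mRNAs mainly through its seed, the bases 2 to 8 counted from its 5′ end. A 5′ end that lies elsewhere by a single base therefore gives another seed, while a different 3′ end leaves the seed as it is. The miR-101 family is conserved among vertebrates, its 3p strand is the usual product, and the mRNA of the Polycomb methyltransferase Ezh2 is among its known targets.

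The hairpins are shown because they locate the ends that the results turn on. The following are those of GENCODE M21 on GRCm38, which equal the RefSeq entries for GRCm38.p6, and capitals mark the mature miRNAs of RefSeq, the 5p strand first. Mir101a (ENSMUSG00000065451.1) lies at chr4:101346945-101347027 on the minus strand, within exon 2 of 2 of the lincRNA E130102H24Rik. Mir101b (ENSMUSG00000065556.1) lies at chr19:29135279-29135375 on the plus strand, within intron 8 of Rcl1, a protein-coding gene with 9 exons.
Mir101a: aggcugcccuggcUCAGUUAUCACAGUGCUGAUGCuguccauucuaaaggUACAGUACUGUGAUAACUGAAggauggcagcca
Mir101b: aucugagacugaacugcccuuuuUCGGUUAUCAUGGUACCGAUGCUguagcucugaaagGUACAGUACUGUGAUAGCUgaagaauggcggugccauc

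RefSeq gives the mature 3p miRNAs different ends. Below, capitals mark bases 2 to 8. The RefSeq miR-101b-3p starts 1 base further upstream and ends 3 bases earlier than miR-101a-3p.
miR-101a-3p: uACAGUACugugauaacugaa
miR-101b-3p: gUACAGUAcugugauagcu

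Over the 21 nt of RefSeq miR-101a-3p, the hairpins differ by 1 base, A16G, with positions counted from the first base of RefSeq miR-101a-3p and the base of miR-101a given first. Every tag counted for the mature 3p miRNAs covers this base, so a perfect match separated the family members. Tags with neither base at this position held 12 reads in the DMSO and 11 in the PD library, or 0.0165% and 0.0194% of the perfect reads of both miRNAs. A change between A and G at this base would turn a tag of 1 member into one of the other and is not seen by this count. Of the Mir101a tags, 3 also matched Mir101c, a further hairpin of the family, and these held 2 and 4 reads. No tag of Mir101b matched another hairpin.

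Nearly all reads came from the 3p arm. In the DMSO library 23494 of the 23495 Mir101a reads were miR-101a-3p, and in the PD library 23631 of 23632. For Mir101b, miR-101b-3p held 49244 of 49252 reads in the DMSO and 33192 of 33194 reads in the PD library. The 5p strand of Mir101a was seen with 1 read in each library, and tags at the 5p strand of Mir101b that RefSeq annotates also with 1 read in each. The other tags of Mir101b were fragments of its flank and loop with at most 4 reads in a library. The 5p counts lay below the 3 reads set as the floor, and no fold change was computed for them. Mir101c was matched by 3 reads in the DMSO and 9 in the PD library, of which 1 and 5 matched no other hairpin. miR-144-3p, from a hairpin outside the family, which shares bases 2 to 7 (ACAGUA) with RefSeq miR-101a-3p, had 4 reads in each library.

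miR-101b-3p was the more abundant member and was lower in the PD library, while miR-101a-3p differed little. The level of miR-101b-3p was 2610 RPM with DMSO and 1585 RPM with PD, a fold change of 0.607 (95% interval 0.599 to 0.616). The level of miR-101a-3p was 1245 RPM and 1128 RPM, a fold change of 0.906 (0.890 to 0.923, adjusted p = 1.01e-25 in the exact binomial test of reads). By level, miR-101b-3p was number 11 of the 1139 mature miRNAs with reads in the DMSO library and number 16 in the PD library. miR-101a-3p was number 22 and number 20. In both libraries miR-101b-3p thus exceeded miR-101a-3p, by a ratio of 2.10 with DMSO and 1.40 with PD. The paper lists a primer for miR-101b-3p among those for its RT-qPCR assays, whose values were not used here.

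Of the 498 miRNAs detected at 1 RPM or more in either library, 69 (13.9%) were lower by 1.5-fold or more with PD, and miR-101b-3p was among these as the 41st lowest. Another 30 (6.02%) were higher by 1.5-fold or more, and miR-101a-3p was in neither class. The median log2 fold change of the 498 was -0.17, so that relative to the median miR-101a-3p lay 0.03 higher and miR-101b-3p lower, at a log2 difference of -0.55. With the reads that matched hairpins as denominator in place of all clean reads, miR-101a-3p was higher with PD (1.04) and miR-101b-3p stayed lower, at 0.696, short of 1.5-fold. On that scale 30 miRNAs were lower and 48 higher by 1.5-fold or more.

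**Figure D1:**
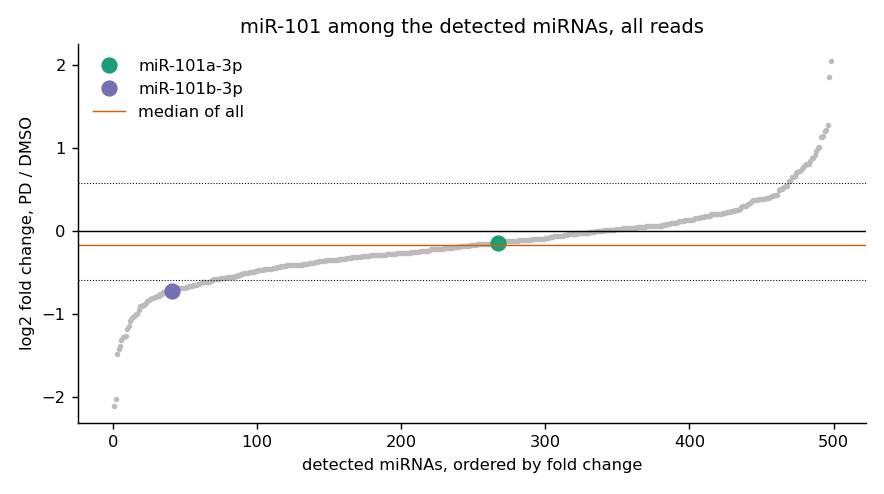
Log2 fold change of RPM (PD over DMSO, y axis) of the 498 detected miRNAs, ordered from the lowest to the highest (x axis), with 1 library per treatment. Dotted lines mark 1.5-fold either way and the orange line the median of -0.17. miR-101b-3p lies below the lower dotted line and miR-101a-3p close to the median.

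The difference between the libraries varied with the 3′ end of the reads in both miRNAs. Positions of 3′ ends are given from the last base of RefSeq miR-101a-3p, which is position 0, and negative positions are ends that lie short of it. In the DMSO library, 51.0% of miR-101b-3p reads ended at position -3 (95% Wilson interval 50.6 to 51.5) and 18.4% at position 0. In the PD library these shares were 30.5% (29.99 to 31.0) and 30.9%. Most miR-101a-3p reads ended at position 0, with 54.3% in the DMSO and 63.8% in the PD library, and position -3 held 15.9% and 6.61%. Position -3 is the end that RefSeq gives miR-101b-3p.

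The tags that carried these reads are shown next, as sequenced, with bases 2 to 8 in capitals. They are the 22-nt and 19-nt tags of each miRNA from the same 5′ end, and last the 22-nt tag of miR-101b-3p that starts and ends 1 base later.
miR-101a-3p, 22 nt: gTACAGTActgtgataactgaa
miR-101a-3p, 19 nt: gTACAGTActgtgataact
miR-101b-3p, 22 nt: gTACAGTActgtgatagctgaa
miR-101b-3p, 19 nt: gTACAGTActgtgatagct
miR-101b-3p, 22 nt, later start: tACAGTACtgtgatagctgaag

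The 19-nt tag of miR-101b-3p was its most frequent tag in both libraries, with 19952 reads for DMSO and 8019 for PD (fold change 0.362, 0.353 to 0.372). The 19-nt tag of miR-101a-3p had 3253 and 1379 reads, with a fold change of 0.382 (0.358 to 0.407). The 22-nt tags did not share this difference. That of miR-101b-3p had 6487 and 7757 reads (fold change 1.08, 1.04 to 1.11), and that of miR-101a-3p, its most frequent tag, 9505 and 11621 reads (1.10, 1.07 to 1.13). The 22-nt tag of miR-101b-3p with the later start had 3888 and 4638 reads (1.07, 1.03 to 1.12).

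The fold change also differed by 3′ end position. Reads of miR-101b-3p that ended at position -3 were at 1331 RPM with DMSO and 483 RPM with PD, a fold change of 0.363 (0.355 to 0.371). At position -2 the fold change was 0.523, at -1 it was 0.843, at 0 it was 1.02, and at 1 it was 1.08. For miR-101a-3p the fold changes at positions -3 to 1 were, in that order, 0.378, 0.514, 1.00, 1.07 and 1.14. Both miRNAs were thus lower by more than 1.5-fold at the ends 2 and 3 bases short, and neither was at position -1 or beyond, among positions with at least 100 DMSO reads. The rarer miR-101b-3p reads that ended 4 bases short were the lowest, with 166 reads in the DMSO and 49 in the PD library (0.266, 0.189 to 0.368).

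**Figure D2:**
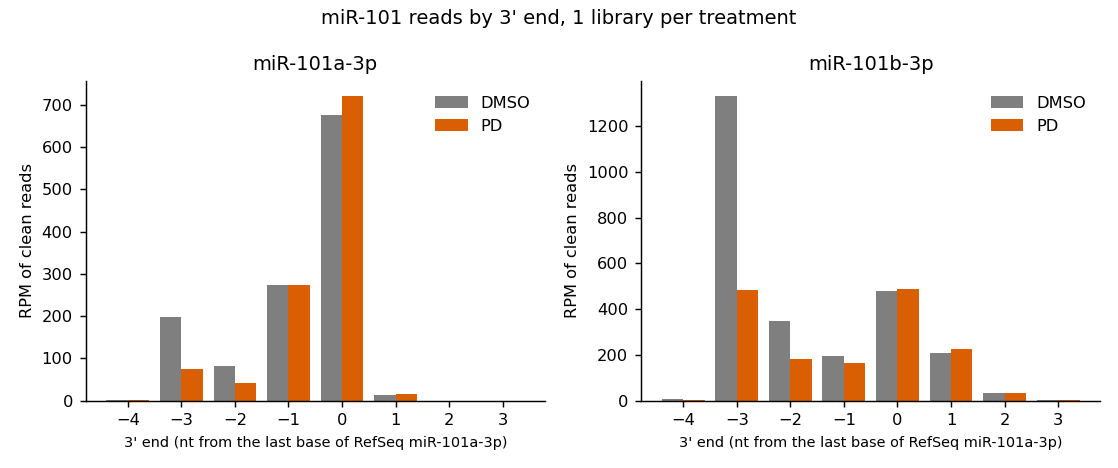
Level (RPM, y axis) of miR-101a-3p (left) and miR-101b-3p (right) by the 3′ end of the reads, in nt from the last base of RefSeq miR-101a-3p (x axis), in the DMSO (gray) and the PD (orange) library. The bars at -3 and -2 are lower with PD, from 1331 to 483 RPM at -3 for miR-101b-3p, while those at 0 are close together. The y scales of the panels differ.

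Grouped by length, the same division was seen. Reads of 18 to 20 nt, called short here, were 66.6% of miR-101b-3p in the DMSO library (Wilson interval 66.2 to 67.0) and 44.4% in the PD library (43.8 to 44.9). Of miR-101a-3p they were 25.9% (25.4 to 26.5) and 14.0% (13.6 to 14.5). The short reads had a fold change of 0.405 (0.397 to 0.413) for miR-101b-3p and of 0.491 (0.470 to 0.512) for miR-101a-3p. Reads of 21 nt or more had fold changes of 1.01 (0.990 to 1.03) and 1.05 (1.03 to 1.07). The level of miR-101b-3p differed by -1025 RPM between the libraries, of which short reads made up -1034 RPM and the others +9.51 RPM. For miR-101a-3p the difference of -117 RPM was made up of -164 RPM of short reads and +47.6 RPM of others. The mean length was 19.9 nt (SD over reads 1.39) with DMSO and 20.6 nt (1.43) with PD for miR-101b-3p, and 20.97 nt (1.13) and 21.3 nt (0.904) for miR-101a-3p.

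The lower level of short reads was found across the miRNAs of these libraries and was not shown to be particular to miR-101. Counting reads of 18 to 20 nt alone, 140 of 228 detected miRNAs (61.4%) were lower by 1.5-fold or more, with a median log2 fold change of -0.83. Both members were among these, with miR-101b-3p as the 48th and miR-101a-3p as the 88th lowest. Counting reads of 21 nt or more, 47 of 478 (9.83%) were lower by that much and neither member was. Among 104 miRNAs with at least 100 reads of each length class in the DMSO library, 87 had a lower log2 fold change for short than for longer reads, with a median difference of -0.79. The difference was -1.10 for miR-101a-3p and -1.32 for miR-101b-3p, and 33 and 14 of the 104 had a more negative one. The 104 were selected by reads of the DMSO library alone, where short reads were the more frequent. This selection can favor miRNAs whose short reads were lower with PD. By short share in the DMSO library, where the median was 10.6%, 4 of the 104 were higher than miR-101b-3p and 41 higher than miR-101a-3p.

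**Figure D3:**
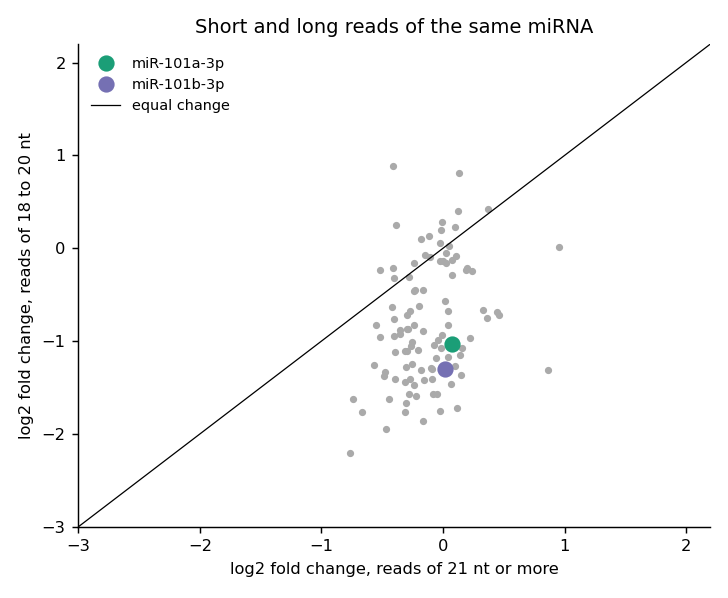
Log2 fold change (PD over DMSO) of the reads of 18 to 20 nt (y axis) against that of the reads of 21 nt or more (x axis) for 104 miRNAs with at least 100 reads of each class in the DMSO library. Most points, 87 of 104, lie below the line of equal change, and miR-101a-3p (-1.03) and miR-101b-3p (-1.30) lie among them, near 0 on the x axis.

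All hairpin reads outside Mir101a and Mir101b showed the same contrast, with 7.97% short reads in the DMSO and 4.65% in the PD library and fold changes of 0.512 for short and 0.910 for longer reads. Over the clean reads of any source, 18 to 20 nt took 21.3% of the DMSO and 18.6% of the PD library. The part of these library-wide length differences in the values of miR-101 was not tested. With 1 library per treatment, an effect of PD on read length cannot be told apart from a difference in RNA quality or library preparation. The paper purified small RNA from 18 nt upward on a gel, so reads of 18 to 20 nt lie at the lower edge of that selection. Reads under 18 nt were removed by the authors before deposition, so that shorter products of either miRNA are not counted.

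Among reads with the same 3′ end the fold changes of the family members lay closer together. Over all reads, the fold change of miR-101b-3p divided by that of miR-101a-3p was 0.670 (0.655 to 0.686). Among reads that ended at position -3 it was 0.960 (0.901 to 1.02, adjusted p = 0.255 in Fisher's exact test over 10 comparisons), and at -2 it was 1.02 (0.928 to 1.11, adjusted p = 0.727). At position 1 it was 0.943 (0.799 to 1.11, adjusted p = 0.555 in Fisher's exact test). miR-101b-3p was lower relative to miR-101a-3p at position 0 (0.959, 0.924 to 0.995, adjusted p = 0.0381 in Fisher's exact test) and at position -1 (0.842, 0.794 to 0.894, adjusted p = 3.26e-08 in Fisher's exact test). The value was 0.825 (0.787 to 0.864) among all short reads and 0.961 (0.934 to 0.990) among all reads of 21 nt or more. In these longer reads the members were at similar levels, with a ratio of miR-101b-3p to miR-101a-3p of 0.946 with DMSO and 0.909 with PD, against 5.38 and 4.44 in short reads.

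Both miRNAs were sequenced from 2 main 5′ ends. The upstream end begins with G, as in RefSeq miR-101b-3p, and the downstream end 1 base later with U, as in RefSeq miR-101a-3p. The upstream end was the more frequent for both. It held 79.0% of miR-101a-3p reads in the DMSO (Wilson interval 78.5 to 79.5) and 79.2% in the PD library (78.7 to 79.7), although RefSeq starts miR-101a-3p at the downstream end. For miR-101b-3p it held 69.6% (69.2 to 70.0) and 64.8% (64.3 to 65.3), and the downstream end 29.6% and 34.0%. Later starts were rare, with 0.749% and 1.16% of miR-101b-3p reads at the next base and 5 and 9 reads of miR-101a-3p.

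Among the reads of these 2 ends, the upstream share of miR-101b-3p was 70.2% with DMSO and 65.6% with PD (adjusted p = 8.24e-42 in Fisher's exact test over 12 comparisons). Within a single 3′ end the difference of PD minus DMSO was -0.156 points at position -3 and above 0 at the other 4 positions. At position -3, which held most short reads, it was 79.4% and 79.3% (adjusted p = 0.879 in Fisher's exact test). At -1 it was higher with PD (77.9% and 81.4%, adjusted p = 6.49e-04 in Fisher's exact test), as it was at 0 (72.3% and 76.2%, adjusted p = 6.14e-09 in Fisher's exact test). miR-101a-3p had a higher upstream share with PD at position 0 (74.5% and 77.1%, adjusted p = 3.65e-06 in Fisher's exact test), and no difference passed the test at its other 4 positions or over all its reads. At position 1, nearly all reads of both miRNAs had the downstream end, with upstream shares of 0.740% and 0.791% for miR-101b-3p and 1.88% and 2.08% for miR-101a-3p.

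**Figure D4:**
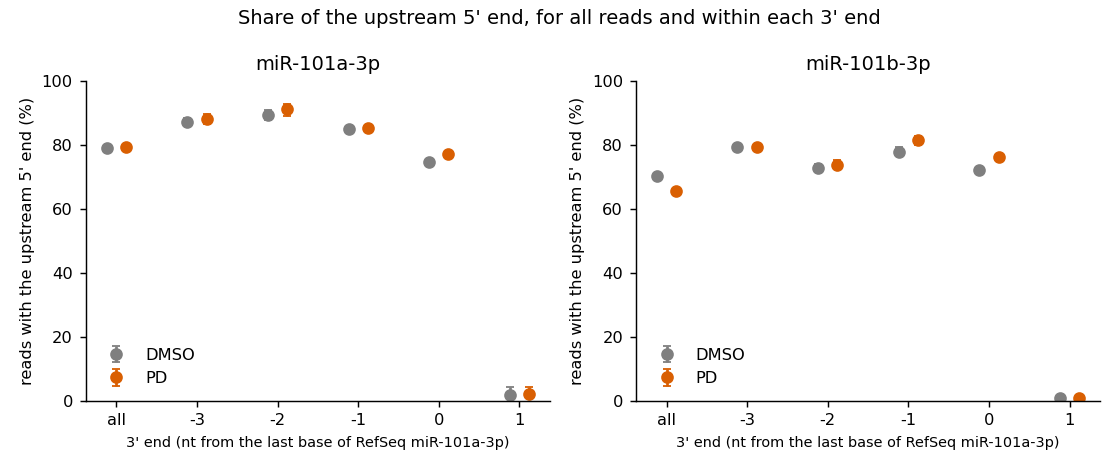
Share of reads with the upstream 5′ end among reads with the upstream or downstream end (percent, y axis), over all reads and by 3′ end position (x axis), for miR-101a-3p (left) and miR-101b-3p (right). Points are the DMSO (gray) and PD (orange) library, and bars are 95% Wilson intervals of the reads. For miR-101b-3p the PD point is lower over all reads, at 65.6% against 70.2%, but is level or higher within each 3′ end.

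The fold change of miR-101b-3p was close to equal for both 5′ ends at position -3, and less so at positions -2, -1 and 0. For miR-101a-3p the intervals of the 2 ends overlapped at positions -3, -2 and -1, but not at 0. At position -3, miR-101b-3p had fold changes of 0.362 with the upstream and 0.366 (0.347 to 0.385) with the downstream end. For miR-101a-3p these were 0.382 and 0.351 (0.295 to 0.417). At position -2, the upstream and downstream ends had 0.531 and 0.506 for miR-101b-3p, and 0.524 and 0.431 (0.326 to 0.567) for miR-101a-3p. At position -1, they had 0.883 (0.838 to 0.931) and 0.709 (0.638 to 0.787) for miR-101b-3p, and 1.01 and 0.969 (0.878 to 1.07) for miR-101a-3p. At position 0, the upstream end of miR-101b-3p had 1.08 (1.04 to 1.11) and the downstream end 0.880 (0.831 to 0.931), whose intervals do not overlap. At the same position miR-101a-3p had 1.10 (1.07 to 1.13) and 0.960 (0.914 to 1.01).

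The other tags with 1% or more of a member's reads filled in the same picture. Those of miR-101b-3p with the upstream end were the 20-nt tag, with 4773 reads for DMSO and 2812 for PD (fold change 0.531), and the 21-nt tag, with 2880 and 2823 (0.883). With the downstream end, the 18-nt tag had 5173 and 2099 reads (0.366), the 19-nt tag 1773 and 996 (0.506), the 20-nt tag 817 and 643 (0.709), the 21-nt tag 2483 and 2424 (0.880) and the 23-nt tag 417 and 435 (0.940). Of these, the tags that ended at positions -3 and -2 were lower by more than 1.5-fold, whatever their 5′ end. For miR-101a-3p the upstream 21-nt tag had 4383 and 4892 reads (1.01) and the upstream 20-nt tag, which ended at -2, had 1397 and 813 (0.524). Its downstream tags of 18 nt had 472 and 184 reads (0.351), those of 20 nt 783 and 842 (0.969), those of 21 nt 3247 and 3458 (0.960) and those of 22 nt 261 and 330 (1.14). The 20-nt tags of miR-101a-3p thus had different fold changes although they are of the same length, and differ in both their 5′ and 3′ ends. Those of miR-101b-3p differed too (0.531 and 0.709). Its 21-nt tags were close to equal (0.883 and 0.880) although their 3′ ends differ, as were its 22-nt tags (1.08 and 1.07). At the same end, position -1, its 21-nt tag had 0.883 and its 20-nt tag 0.709. The parts of length, 5′ end and 3′ end were not separated here.

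**Figure D5:**
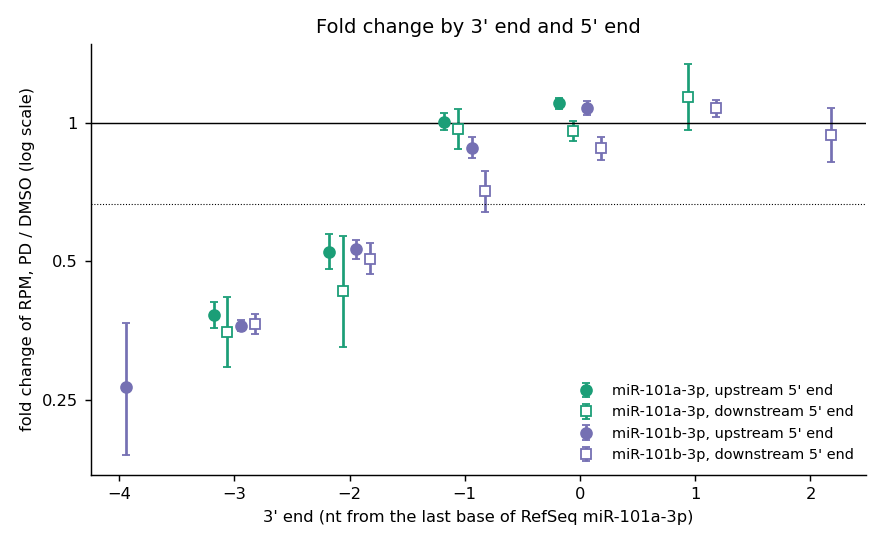
Fold change of RPM (PD over DMSO, log scale, y axis) by 3′ end position (x axis) for the upstream (filled circles) and downstream (open squares) 5′ end of miR-101a-3p (green) and miR-101b-3p (purple), for classes with at least 100 DMSO reads. Bars are 95% intervals of the reads, the solid line is equal level and the dotted line 1.5-fold lower. Points at -4, -3 and -2 lie below the dotted line, those from -1 on above it, the lowest of them at 0.709.

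In terms of seeds, most miR-101 reads carried UACAGUA at bases 2 to 8, the seed of the upstream end. These were 72.7% of the 3p reads of both miRNAs in the DMSO library (2800 RPM) and 70.8% in the PD library (1921 RPM), with a fold change of 0.686. The seed ACAGUAC of the downstream end made up 26.8% (1033 RPM) and 28.4% (772 RPM), a fold change of 0.747. These totals hold reads of every length and are scaled to all clean reads. Reads of 21 nt or more alone had fold changes of 1.05 for miR-101a-3p and 1.01 for miR-101b-3p. Both seeds were carried by miR-101a-3p and miR-101b-3p alike, and the base at which the miRNAs differ lies outside them.

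Sites that pair with these seeds were searched in the 3′UTRs of genes of pluripotency and of known targets, whose mRNA was not measured in these libraries. The paper measured several of these genes by other assays, and those values were not compared with the sites here. The site for the upstream seed is TACTGTA and that for the downstream seed GTACTGT, which overlap, and GTACTGTA holds both. Sites were read on the mRNA strand of 1 transcript per gene. Of 20575 mouse 3′UTRs, of any length, 11.1% held the upstream site, 8.57% the downstream site and 2.70% the joint site. Ezh2, the catalytic subunit of Polycomb repressive complex 2, had a joint site and a further downstream site in a 3′UTR of 402 nt. Mycn, a MYC family transcription factor, had 2 joint sites and 1 further upstream site in 913 nt. The 4 sites of these genes that hold the downstream site are shown with the site in capitals and with their place on GRCm38, all on the minus strand.
Ezh2, chr6:47530410-47530437: aatttgcaaaGTACTGTAacagtaattt
Ezh2, chr6:47530466-47530492: ggaaccttgaGTACTGTgggcaattta
Mycn, chr12:12936500-12936527: tcacacctaaGTACTGTAagaatacctc
Mycn, chr12:12936433-12936460: aatctgttatGTACTGTActaattccta

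Tet1, a dioxygenase that oxidizes 5-methylcytosine, had 2 upstream sites in a 3′UTR of 7955 nt, and Tfcp2l1, a transcription factor of naive pluripotency, had 1 in 7734 nt. Among 3′UTRs of like length, 53.3% and 51.9% held the upstream site, against 2.64% for the length of Ezh2 and 9.12% for that of Mycn. The 3′UTRs of Nanog, Pou5f1, Sox2, Klf4 and Myc, transcription factors of the pluripotency network, held neither site, and of 3′UTRs of like length 1.90% to 10.7% held the upstream site. That of Prdm14, a regulator of naive pluripotency, also held neither, although its coding sequence had 1 of each. A match of letters does not show that a site is used.

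The miRNAs whose fold change over all reads lay nearest to that of each member were taken from 129 other miRNAs with at least 1000 DMSO reads. Nearest to miR-101b-3p were miR-10a-5p (0.610), miR-92-1-3p/miR-92-2-3p (0.602) and miR-409-3p (0.628). They differed in their reads by length. miR-10a-5p had 0.958% short reads in the DMSO library and a fold change of 0.614 in its longer reads. miR-92-1-3p/miR-92-2-3p had 52.1% short reads, with fold changes of 0.412 for short and 0.808 for longer reads, and miR-409-3p had 34.5%, with 0.376 and 0.760. The longer reads of miR-101b-3p, at 1.01, were above those of all 3. These 3 were chosen for a like fold change over all reads and had smaller short shares than miR-101b-3p (66.6%). Their order in longer reads is thus set in part by the choice. Nearest to miR-101a-3p were miR-106b-3p (0.902), miR-34c-5p (0.911) and miR-877-5p (0.921), with 0.460% to 3.79% short reads in the DMSO library against 25.9% for miR-101a-3p.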

How the data were processed

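The authors gel-purified and sequenced small RNA, removed low-quality, adapter and contaminant reads and those under 18 nt, and collapsed the clean reads into distinct tags. The deposited values are the read counts of these tags, not normalized and not aligned. The submitters' processing notes name mm9, but the files hold no coordinates. The aligner was not given in the sources used here. Tags were matched to GENCODE M21 hairpins (GRCm38) with Python 3.11.15 and NumPy 2.4.6. The study used miRBase, so names and ends may differ. ViennaRNA 2.7.2 separated the arms. The most frequent tag of an arm was its mature miRNA, tags overlapping it by 16 nt or more were counted, and hairpins with identical mature tags were merged. A miRNA was detected at 1 RPM in either library. Fold changes are ratios of RPM, with exact binomial tests, Clopper-Pearson intervals and Benjamini-Hochberg adjustment over the 498 detected miRNAs (SciPy 1.17.1). Shares have Wilson intervals, and ratios of fold changes Woolf intervals and Fisher's exact tests, all 2-sided.

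Group labels gave 1 library per treatment, so no model with replicates could be fitted. TMM factors (edgeR 4.0.16) and size factors (DESeq2 1.42.0, R 4.3.3) served as alternatives, beside other denominators, filters, tag sets and downsampling of the PD library. The members and lists were chosen with earlier results of these data known. Named were both arms of the members, tags of 1% or more of an arm, shared tags, Mir101c, Mir144, the 3 miRNAs nearest by fold change among those with 1000 DMSO reads, and a list of site genes. The fold change was tested on simulated counts with known changes. These held the sampling of reads only, with no variation between libraries and no shift in read length. The microarray was not analysed here.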

Additional observations from a re-analysis of the deposited data

Results flagged for a closer look

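Reads with a 3′ tail, 1 to 3 bases that the hairpin does not hold, lie outside the perfect matches that the levels above count, and they were present for both miRNAs above the limit of 3 reads. A sequencing error in the last 3 bases of a read was counted as a tail too. An added base that equals the next base of the hairpin was not, as for adenosine after position -2 or -1. miR-101a-3p had 1851 tailed reads in the DMSO and 2214 in the PD library, which were 7.30% and 8.57% of its reads with tails included. miR-101b-3p had 2366 and 2623 tailed reads, or 4.58% and 7.32%. Most tails were adenosine, with 5.67% and 6.54% of miR-101a-3p and 2.80% and 4.77% of miR-101b-3p, and uridine tails were 0.931% and 1.18%, and 1.59% and 2.26%. The level of tailed miR-101b-3p was 125 RPM in both libraries (fold change 0.999, 0.944 to 1.06). Among reads whose hairpin part ended at position 0, the tailed share was 15.2% and 15.8% for miR-101b-3p and 11.7% and 11.9% for miR-101a-3p. Among those that ended at position -3 it was 0.187% and 0.246%, and 0.348% and 0.573%. The most frequent adenosine tails of each miRNA are shown with the tail in capitals, and held 729 and 877 reads for miR-101a-3p and 640 and 813 reads for miR-101b-3p.
miR-101a-3p: gtacagtactgtgataactgaaA
miR-101b-3p: gtacagtactgtgatagctgaaA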

How the results depend on the processing

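No paired analysis was possible because each treatment had 1 library. The 5p strands had too few reads for any setting. The direction of miR-101a-3p depended on the denominator, with fold changes of 1.04 (hairpin reads), 1.10 (clean reads of 20 to 24 nt), 1.02 (TMM) and 1.02 (DESeq2 size factors). It was also above 1 with only its most frequent tag (1.10) or reads of 21 nt or more (1.05), and was 0.491 with short reads. miR-101b-3p kept its direction with these denominators but fell short of 1.5-fold, at 0.696, 0.735, 0.682 and 0.684, and with reads of 21 nt or more was 1.01. Of 11 settings, the ratio of the fold changes turned direction at position -2 (1.02) and stayed below 1 in the others, with intervals that held 1 at -2, -3 (0.960) and 1 (0.943). The upstream share of miR-101b-3p differed by 0.434 points in reads of 21 nt or more, by 3.89 points at position 0 and by -0.156 points at -3, against -4.84 over all reads. That of miR-101a-3p differed by 1.496 points in reads of 21 nt or more (unadjusted p = 2.52e-04 in Fisher's exact test) and by 2.52 points at position 0 (9.96e-07), against 0.245 over all reads. With the upstream 5′ end only, the difference in mean length was 0.344 nt for miR-101a-3p and 0.608 nt for miR-101b-3p, against 0.318 and 0.659. The count of miRNAs changed by 1.5-fold or more, 99, was 561 without a filter, 32 at 10 RPM or more and 26 at 2-fold. With the other denominators it was within 1.5 times, but more miRNAs were then higher than lower, with 48 and 30 (hairpin reads), 59 and 23 (20 to 24 nt), and 43 and 34 (TMM and DESeq2 alike). Settings by short reads, tails or 3′ end, and reads of 21 nt or more for the count, were chosen after seeing the data. The variation between libraries could not be measured.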
